A study of Mus musculus with 20 samples.

Results

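The 6 genes described here encode G protein-coupled receptors for lipid ligands that place lymphocytes and dendritic cells within the spleen. They are the sphingosine-1-phosphate (S1P) receptors S1pr1, S1pr2, S1pr3 and S1pr4, the oxysterol receptor Gpr183 and the cannabinoid receptor Cnr2. They were taken by symbol from a table of read counts for 28338 genes, and all 6 passed the filter on low counts that left 18710 genes for testing. Their RNA was measured by sequencing in 20 libraries from sorted spleen cells of C57BL/6 mice at 21 days after birth. The mice were wild type (WT) or carried the genotype labelled March1-/-, and no treatment was given in the labels. March1 encodes a membrane-bound ubiquitin ligase that removes MHC class II and CD86 from the cell surface. The 5 groups, of 4 libraries each, were WT B cells, WT cDC1 (type 1 conventional dendritic cells), March1-/- B cells, March1-/- cDC1 and March1-/- cells with intermediate CD11c, intermediate CD8 and CD24 on their surface, called CD11cint cells below. The title of the series concerns marginal zone B cells that take material from dendritic cells.

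S1P is abundant in blood and scarce inside lymphoid tissue, and cells read this difference with their S1P receptors. S1PR1 draws lymphocytes towards S1P, and in mice S1PR1 and S1PR3 are known to act in marginal zone B cells, which sit at the blood-exposed rim of the white pulp, against the pull of the follicle exerted through CXCR5. S1PR2 is known to restrain migration, as in germinal centre B cells. GPR183 follows oxysterols made by CH25H and CYP7B1 and broken down by HSD3B7, and guides B cells and dendritic cells to the outer follicle and the bridging channels. CNR2 binds endocannabinoids and is known to help hold marginal zone B cells in place in mice.

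The total count per library was 22491084 to 32751804, so that 3 counts, taken as the floor of detection, equalled 0.0916 to 0.1334 CPM (read counts scaled to the library's effective size). Whether each library is another mouse is not stated in the labels. The p-values therefore reflect the spread among libraries, part of which may be technical. The sort labels held for B cells and cDC1. Mean Cd79a, part of the B cell receptor, was 1248 and 1454 CPM in the B cell groups and 7.78 and 17.1 CPM in the cDC1 groups, whereas Xcr1, a chemokine receptor of cDC1, was 911.1 and 788.1 CPM in the cDC1 groups and at most 3.52 CPM in the others. CD11cint cells held Cd79a RNA at 1368 CPM, and their Itgax, which encodes CD11c, was at 10.7 CPM, where March1-/- B cells had 10.4 CPM. March1 itself was counted at 133.9 to 170.8 CPM in March1-/- B cells and 137.4 to 158.6 CPM in WT B cells. In March1-/- cDC1 it was lower, at 253.5 to 272 CPM against 321.9 to 379.9 CPM in WT cDC1 (log2 fold change −0.38 ± 0.07, edgeR adjusted p = 0.00306). The sources used here do not say which part of the gene was deleted. A count over the whole gene therefore does not check the genotype, and March1-/- means the libraries so labelled. Library 1 of CD11cint cells and library 1 of March1-/- cDC1 stood apart from their groups, with a chi-square per gene against the others of 45.4 to 70.9 and of 55.6 to 71.4, where the remaining pairs of those groups gave 7.06 to 21.3. Each result below that changed without the 3 March1-/- libraries numbered 1 is given with both values.

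The genes lie on GRCm38 as follows, and all are protein coding. S1pr1 spans 115710433 to 115715072 on the minus strand of chromosome 3 with an exon length of 3046 bases. S1pr2 spans 20962361 to 20976781 on the minus strand of chromosome 9 with 7971 exon bases. S1pr3 spans 51408639 to 51422797 on the plus strand of chromosome 13 with 4463 exon bases, of which 1.01% are shared with Gm32834 on the opposite strand. S1pr4 spans 81497747 to 81500132 on the minus strand of chromosome 10 and is a single exon block of 2386 bases. Gpr183 spans 121952551 to 121965195 on the minus strand of chromosome 14, within the bounds of Ubac2 on the plus strand but sharing no exon bases with it. Cnr2 spans 135895394 to 135920207 on the plus strand of chromosome 4 with 3982 exon bases.

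The starts of S1pr3 and S1pr4 are shown because these genes moved in opposite directions in the comparisons of B cells and CD11cint cells below. Both windows run from 250 bases before the annotated start to 50 bases from it, are read 5′ to 3′ on the strand of the gene and come from RefSeq (GRCm38.p6). RefSeq windows were at hand for 5 of the 6 genes, S1pr1 being the other. They were searched on both strands for CCACCC, bound by KLF factors, for TGGGAA, bound by RBPJ in Notch signalling, and for CGGAAG, bound by ETS factors, and no matches overlapped. Matches are in capitals. S1pr3 lies at chr13:51408368-51408667 on the plus strand and S1pr4 at chr10:81500088-81500387 on the minus strand.
S1pr3: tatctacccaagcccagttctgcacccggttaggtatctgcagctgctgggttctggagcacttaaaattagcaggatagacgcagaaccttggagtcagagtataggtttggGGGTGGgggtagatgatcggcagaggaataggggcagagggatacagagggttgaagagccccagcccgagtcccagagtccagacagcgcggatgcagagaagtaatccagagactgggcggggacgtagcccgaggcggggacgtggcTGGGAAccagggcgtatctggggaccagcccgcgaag
S1pr4: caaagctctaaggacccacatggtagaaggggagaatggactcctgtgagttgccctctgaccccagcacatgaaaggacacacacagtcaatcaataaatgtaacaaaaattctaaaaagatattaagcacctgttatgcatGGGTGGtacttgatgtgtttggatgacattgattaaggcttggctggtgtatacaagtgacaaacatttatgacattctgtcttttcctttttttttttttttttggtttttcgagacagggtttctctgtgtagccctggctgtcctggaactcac
In the S1pr3 window the KLF motif stands on the opposite strand at −137 to −132 from the start base, and the RBPJ motif on the gene's strand at 13 to 18. In the S1pr4 window the KLF motif stands on the opposite strand at −107 to −102. The RBPJ motif also occurs in the Gpr183 window at −64 to −59 and, for Cnr2, in the window of its second start at −180 to −175, while the S1pr2 window and the other Cnr2 window hold none of the motifs searched. Of 32851 promoter windows of this length, 31.5% hold the KLF motif, 25.6% the RBPJ motif and 16.9% the ETS motif, so each of these matches is common and describes letters only.

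S1pr1, the receptor that draws lymphocytes towards blood, was highest in CD11cint cells, lower in B cells and far lower in cDC1. In CD11cint libraries 1 to 4 it was at 514, 482.5, 463.5 and 456.3 CPM. In WT B cells it was at 442.9, 346.7, 327.9 and 326.5 CPM, and in March1-/- B cells at 277.1, 297.7, 239.1 and 219.4 CPM. All 4 libraries of each of these groups lay above those of the next, although the lowest CD11cint library exceeded the highest WT B cell library by little. In March1-/- cDC1 it was at 6.33, 7.13, 5.08 and 5.5 CPM, and in WT cDC1 at 2.61, 3.48, 3.18 and 3.38 CPM.

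S1pr3 RNA followed the same order of groups over a wider range. It was at 225.5, 198.3, 199.9 and 199.8 CPM in CD11cint cells, at 150, 98.4, 102.5 and 125.6 CPM in WT B cells, and at 73.9, 81.7, 54.8 and 60.8 CPM in March1-/- B cells. In March1-/- cDC1 it was at 3.18, 3.46, 2.78 and 3.43 CPM. In WT cDC1 it was at 1.18, 0.79, 1.01 and 0.896 CPM, from 20 to 32 reads in a library. No library of one group overlapped the next in this order.

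S1pr4, a receptor found mainly on blood and lymphoid cells, had another order, with March1-/- B cells first. Its level was 48.8, 49.6, 56.1 and 42 CPM in March1-/- B cells, 31.6, 38.5, 35.5 and 31 CPM in WT B cells, and 23.5, 23.2, 24.7 and 20.3 CPM in CD11cint cells. It was 6.02, 4.9, 5.6 and 4.71 CPM in March1-/- cDC1 and 4.23, 3.79, 4.61 and 4.03 CPM in WT cDC1. The groups did not overlap, but the gap between the cDC1 groups was small.

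S1pr2, the receptor that restrains migration, was the only S1P receptor of the 4 members with its highest means in cDC1. It was at 12.5, 10.7, 12.5 and 9.17 CPM in March1-/- cDC1 and at 11.1, 11.4, 9.86 and 10.5 CPM in WT cDC1, and these groups overlapped. WT B cells followed at 6.5, 8.57, 6.79 and 6.76 CPM. March1-/- B cells were lower, at 2.69, 1.91, 4.97 and 1.68 CPM, and overlapped with CD11cint cells at 1.66, 1.88, 3.48 and 1.49 CPM. Library 3 was the highest in both of these groups.

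Gpr183 varied least with group among the genes. It was at 49.4, 54.2, 50.5 and 45.3 CPM in WT B cells, 58.2, 53.4, 43.2 and 37.6 CPM in CD11cint cells and 48.2, 51.6, 40.3 and 29.9 CPM in March1-/- B cells. In cDC1 it was at 38.5, 38.4, 27.3 and 31.9 CPM (March1-/-) and 36.5, 19.6, 23.5 and 18.8 CPM (WT). Every group overlapped with its neighbour in this order, and no neighbouring pair passed the unpaired exact permutation test below.

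Cnr2 was abundant in all groups. It was at 253, 273.1, 256.5 and 250 CPM in CD11cint cells, at 222.8, 237, 230.6 and 222.5 CPM in WT B cells and at 212.9, 241.1, 212.7 and 212.2 CPM in March1-/- B cells. WT cDC1 held 124.2, 133.7, 116.9 and 127 CPM and March1-/- cDC1 95.3, 119, 113.7 and 116.1 CPM. The B cell groups overlapped with each other, as did the cDC1 groups. Over the 6 genes, 24 neighbouring pairs of groups were compared with a two-sided exact permutation test on log2 CPM, and the 16 pairs that did not overlap each gave p = 0.0286, the smallest that 70 assignments allow (0.0429 adjusted over the 24).

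**Figure D1:**
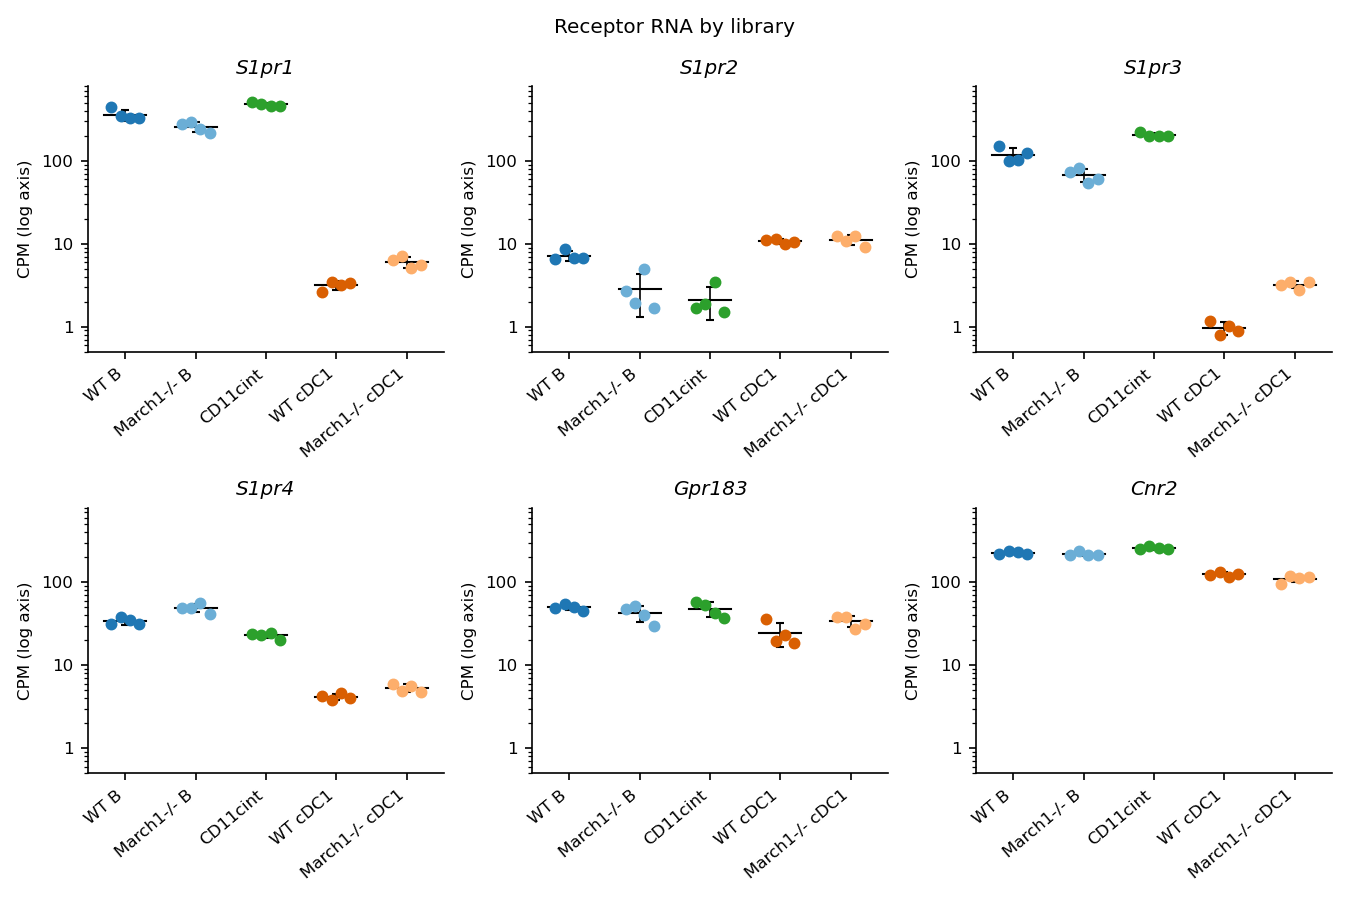
CPM of each receptor gene (log axis, the same in all panels) in every library of the 5 groups, with the mean (line) and SD (bars) of 4 libraries. S1pr1 and S1pr3 are highest in CD11cint cells and lowest in WT cDC1, S1pr4 is highest in March1-/- B cells, and Gpr183 spans only 18.8 to 58.2 CPM.

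The B cells of both genotypes were compared to find the receptors that differ with the labelled genotype. S1pr1, S1pr2 and S1pr3 fell and S1pr4 rose, so that 4 of 6 genes passed the test where 4.76% of all tested genes did. The 6 genes were chosen with earlier results of these data known. This count and those of the 6 genes below therefore describe the genes and do not test for enrichment. S1pr3 fell from 119.1 ± 23.8 to 67.8 ± 12.2 CPM (mean ± SD, n = 4 libraries), a log2 fold change of −0.81 ± 0.12 (SE, edgeR adjusted p = 0.000213). S1pr1 fell from 361 ± 55.4 to 258.3 ± 35.6 CPM (−0.48 ± 0.11, edgeR adjusted p = 0.00753). S1pr2 fell furthest, from 7.15 ± 0.95 to 2.81 ± 1.5 CPM (−1.34 ± 0.25, edgeR adjusted p = 0.00239). S1pr4 rose from 34.2 ± 3.51 to 49.2 ± 5.76 CPM (0.53 ± 0.09, edgeR adjusted p = 0.000907). Gpr183 (−0.23 ± 0.20, edgeR adjusted p = 0.662) and Cnr2 (−0.06 ± 0.07, edgeR adjusted p = 0.791) did not pass.

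Markers of B cell subsets and summed levels of some other cell markers differed between the same libraries. Of 13 marginal zone genes 8 fell (median log2 fold change −0.58, −0.01 over all genes), and their summed level was 2840 to 3822 CPM in March1-/- and 3982 to 4820 CPM in WT B cells. Of 7 immature B cell genes 5 were tested and all 5 rose, with summed levels of 140.4 to 228.2 against 87.5 to 104.9 CPM, while Rag1 and Rag2 were under 1 CPM in both groups and Rag2 was at 0 in WT. Of 6 follicular genes 3 rose, with summed levels of 2645 to 3247 against 1982 to 2492 CPM. The 7 pan B cell genes summed to 7991 to 8587 against 8037 to 8434 CPM. The 8 T cell genes summed to 113.8 to 128.3 CPM in March1-/- against 92.1 to 99.96 CPM in WT B cells, but none of the 8 was called. The 6 cDC2 genes, of which 1 fell, summed to 262.5 to 293.5 against 294.4 to 349.9 CPM, with Clec4a4 and Esam under 1 CPM in both groups. No T cell or cDC2 marker was at 0. In bulk samples a smaller share of cells of 1 type and less RNA per cell cannot be told apart, and the part of these cells in the receptor changes was not tested.

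CD11cint cells were compared with March1-/- B cells, their counterpart of the same genotype. S1pr1, S1pr3 and Cnr2 were higher and S1pr4 was lower, 4 of 6 genes against 24.7% of all tested genes. S1pr3 was at 205.9 ± 13.1 CPM, 3.04 times the March1-/- B cell level, with a log2 fold change of 1.60 ± 0.12 (edgeR adjusted p = 3.83e-09). S1pr1 reached 479.1 ± 25.8 CPM (0.89 ± 0.11, edgeR adjusted p = 1.53e-06), and S1pr4 was at 22.9 ± 1.85 CPM (−1.10 ± 0.09, edgeR adjusted p = 1.07e-08). Cnr2 reached 258.1 ± 10.3 CPM, a small rise (0.23 ± 0.07, edgeR adjusted p = 0.0142) that missed the threshold without CD11cint library 2 (0.20, edgeR adjusted p = 0.0578). S1pr2 (−0.43 ± 0.28, edgeR adjusted p = 0.309) and Gpr183 (0.18 ± 0.20, edgeR adjusted p = 0.575) did not pass. Among libraries of the same number, which deviated together in these groups, S1pr2 was lower and Gpr183 higher in CD11cint cells in 4 of 4 pairs. With the replicate block within genotype they still did not pass (S1pr2 −0.40, edgeR adjusted p = 0.121, and Gpr183 0.18, edgeR adjusted p = 0.326).

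CD11cint cells were also compared with WT B cells, from which they differ in both genotype and sorting, and this comparison alone does not separate them. It shares the CD11cint libraries with the comparison above, and 4 of 6 genes passed where 14.0% of all tested genes did. S1pr3 (log2 fold change 0.79 ± 0.12, edgeR adjusted p = 7.45e-05) and S1pr1 (0.41 ± 0.11, edgeR adjusted p = 0.0114) were higher in CD11cint cells. S1pr4 (−0.58 ± 0.09, edgeR adjusted p = 0.000134) and S1pr2 (−1.77 ± 0.26, edgeR adjusted p = 7.41e-05) were lower. Cnr2 (0.18 ± 0.07, edgeR adjusted p = 0.0859) and Gpr183 (−0.05 ± 0.20, edgeR adjusted p = 0.903) did not pass, although Cnr2 did without the 3 March1-/- libraries numbered 1 (0.19, edgeR adjusted p = 0.0424). In the comparison with March1-/- B cells, 12 of 13 marginal zone genes were higher, with summed levels of 5888 to 6608 against 2840 to 3822 CPM. Of 6 follicular genes 5 were lower and 1, Cxcr5, was higher, with summed levels of 1514 to 1736 against 2645 to 3247 CPM. All 5 tested immature B cell genes were lower as well, with summed levels of 35.8 to 48.4 against 140.4 to 228.2 CPM. T cell genes (7 of 8 lower, 52.5 to 67.8 against 113.8 to 128.3 CPM) and NK cell genes (6 of 7 lower and 1 higher, 11.8 to 25.7 against 22.2 to 75.5 CPM) also differed between these groups. Of 9 cDC1 genes 5 were higher in CD11cint cells, with a median log2 fold change of 0.83 over the list, and Xcr1 was at 3.52 against 1.65 CPM. Their summed level was 329.2 to 403.3 against 329.1 to 375.5 CPM, and Batf3 and Itgae were under 1 CPM in both groups. Against WT B cells 5 of 9 were higher as well (median 0.82). In that comparison 12 of 13 marginal zone genes were higher, where 5.99% of all tested genes were. Of 6 follicular genes 4 were lower, as were all 5 tested immature B cell genes, where 8.04% of all tested genes were. T cell genes (3 of 8 lower) and NK cell genes (6 of 7 lower and 1 higher) differed there too. The part of these marker differences in the receptor differences was not tested.

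**Figure D2:**
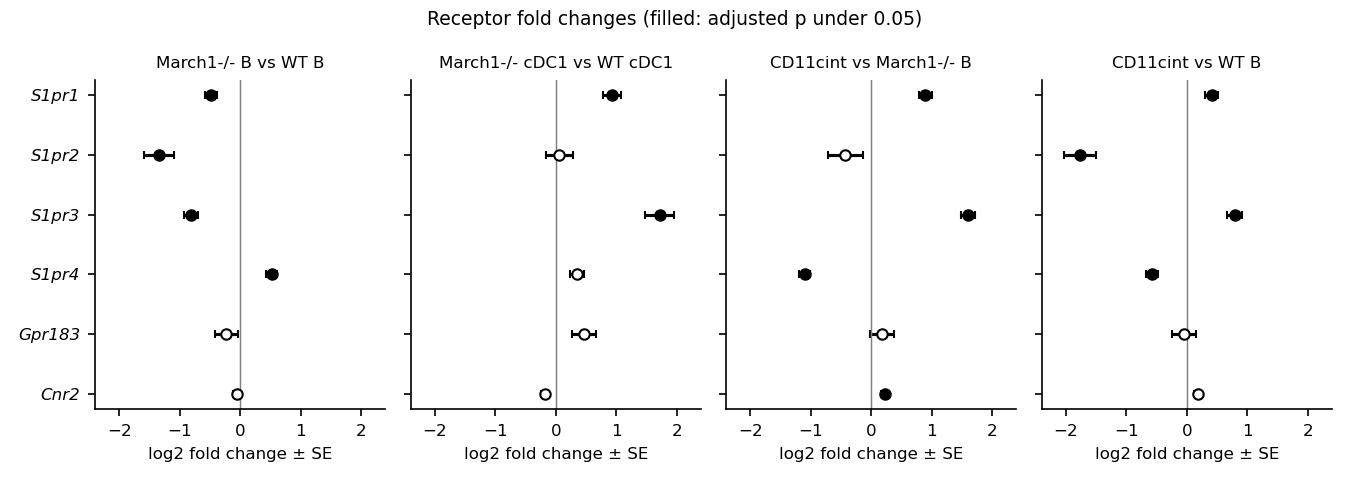
Log2 fold changes (± SE) of the 6 genes in 4 comparisons of 4 against 4 libraries, with filled points where the edgeR adjusted p was under 0.05. S1pr1 and S1pr3 are below 0 in March1-/- B cells against WT and above 0 in the other panels, and S1pr4 takes the other sign in the 3 comparisons with B cells.

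In cDC1, the genotypes differed in S1pr1 and S1pr3 at low levels. Both were higher in March1-/- cDC1, 2 of 6 genes where 2.86% of all tested genes were called and 1.53% were called as higher. S1pr1 rose from 3.16 ± 0.39 to 6.01 ± 0.91 CPM (log2 fold change 0.93 ± 0.15, edgeR adjusted p = 0.000337), and S1pr3 from 0.969 ± 0.17 to 3.21 ± 0.32 CPM (1.72 ± 0.24, edgeR adjusted p = 5e-05). Without the 3 March1-/- libraries numbered 1 these were 0.91 (edgeR adjusted p = 0.00585) and 1.73 (edgeR adjusted p = 0.003). S1pr4 did not pass (0.35 ± 0.12, edgeR adjusted p = 0.153), although its groups did not overlap. S1pr2 (0.06 ± 0.23, edgeR adjusted p = 0.983), Gpr183 (0.47 ± 0.20, edgeR adjusted p = 0.38) and Cnr2 (−0.18 ± 0.07, edgeR adjusted p = 0.265) did not pass either, and Gpr183 passed without WT cDC1 library 1 (0.72, edgeR adjusted p = 0.0278).

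Some markers of other cells in the cDC1 libraries moved with these genes, those of the pan B cell list among them. Of 7 pan B cell genes 5 rose in March1-/- cDC1, and their summed level was 144.9 to 193.1 CPM against 117.1 to 132.7 CPM in WT cDC1, with none of the 7 at 0. Of 13 marginal zone genes 3 rose (median log2 fold change 0.12, 0.01 over all genes). Their summed level overlapped, at 1557 to 1653 CPM in March1-/- and 1490 to 1647 CPM in WT cDC1. Among 6 follicular genes 2 rose and 1 fell, with summed levels of 271.1 to 381.9 against 295.4 to 364.6 CPM. As a percentage of the B cell level of the same genotype, S1pr1 in cDC1 was 0.876 ± 0.11% in WT and 2.33 ± 0.35% in March1-/- (SD, n = 4), and S1pr3 was 0.814 ± 0.14% and 4.74 ± 0.46%. Cr2, the complement receptor abundant on marginal zone B cells and 1 of the 13 marginal zone genes, was named after its values were seen. It went from 0.57 ± 0.06% to 2.59 ± 0.40%. Cd79a went from 0.623 ± 0.09% to 1.17 ± 0.20%, and Ms4a1, which encodes CD20, from 3.24 ± 0.13% to 3.02 ± 0.32%. Pax5 went from 0.639 ± 0.13% to 1.84 ± 0.26% and Blk from 0.73 ± 0.13% to 2.01 ± 0.22%. Cd79b went from 1.33 ± 0.23% to 2.04 ± 0.34% and Cd22 from 2.33 ± 0.20% to 3.06 ± 0.295%. The sum over the pan B cell list went from 1.55 ± 0.08% to 2.05 ± 0.24%. As a percentage of the CD11cint level, March1-/- cDC1 held S1pr1 at 1.25 ± 0.19%, S1pr3 at 1.56 ± 0.15% and Cr2 at 1.16 ± 0.18%. Of the 7 pan B cell genes, 6 were at 1.25 ± 0.21% (Cd79a), 1.62 ± 0.18% (Blk), 1.82 ± 0.26% (Pax5), 1.95 ± 0.33% (Cd79b), 2.57 ± 0.25% (Cd22) and 2.62 ± 0.28% (Ms4a1) of that level, and the sum over the list was at 1.89 ± 0.22%. The 8 genes listed for endothelial cells, another cell type known to use S1pr1 and S1pr3, summed to 129.4 to 133.1 CPM in March1-/- and 106.5 to 120.4 CPM in WT cDC1. In these groups 1 of 7 tested genes was called as higher, Tek was under 1 CPM in both and no marker was at 0. The same list summed to more in B cells, at 168.2 to 180.8 CPM (WT) and 175.9 to 192.1 CPM (March1-/-), where 3 and 4 of its genes were under 1 CPM. Its sum is therefore not particular to endothelial cells. The part of B cell or endothelial RNA in the S1pr1 and S1pr3 differences of cDC1 was not tested.

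**Figure D3:**
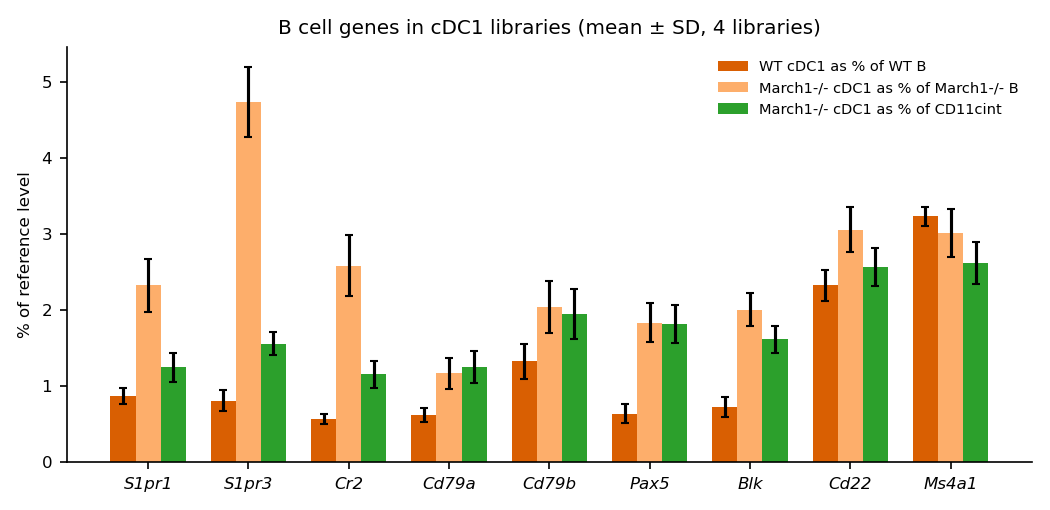
Level in cDC1 libraries of S1pr1, S1pr3 and 7 B cell genes as a percentage of the mean level in WT B cells, March1-/- B cells or CD11cint cells (bars: mean, error bars: SD of 4 libraries). S1pr3 reaches 4.74% of the March1-/- B cell level but 1.56% of the CD11cint level, on which the 6 pan B cell genes drawn range from 1.25% (Cd79a) to 2.62% (Ms4a1).

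The difference between the genotype effects of cDC1 and B cells was tested as an interaction, which called 2.36% of all tested genes, 1.49% with a positive sign, and 3 of 6 receptor genes, all positive. It was 2.54 ± 0.27 on the log2 scale for S1pr3 (edgeR adjusted p = 4.6e-06) and 1.41 ± 0.18 for S1pr1 (edgeR adjusted p = 6.43e-05), both falling in B cells and rising in cDC1. For S1pr2 it was 1.41 ± 0.34 (edgeR adjusted p = 0.0276), and 1.32 without the 3 March1-/- libraries numbered 1 (edgeR adjusted p = 0.117). Gpr183 (0.69 ± 0.28, edgeR adjusted p = 0.287), S1pr4 (−0.17 ± 0.15, edgeR adjusted p = 0.776) and Cnr2 (−0.12 ± 0.10, edgeR adjusted p = 0.745) did not pass. Of 13 marginal zone genes 7 were called with a positive sign (median 0.76), and of 7 pan B cell genes 4 (median 0.89), with 0 negative in both lists. Among 6 follicular genes 1 was positive and 1 negative, and of 5 tested immature B cell genes 1 was negative. The part of B cell RNA in the receptor interactions was not tested.

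S1pr1, S1pr3, S1pr4 and Cnr2 had larger fold changes between cDC1 and B cells than between genotypes. In WT cDC1 against WT B cells all 6 were called, where 71.1% of all tested genes were. S1pr3 was 122-fold lower in cDC1 (log2 fold change −6.93 ± 0.22, edgeR adjusted p = 4.51e-19) and S1pr1 114-fold lower (−6.84 ± 0.14, edgeR adjusted p = 3.46e-21). S1pr4 was 8.21-fold lower (−3.04 ± 0.11), Gpr183 2.02-fold lower (−1.01 ± 0.20) and Cnr2 1.82-fold lower (−0.86 ± 0.07). S1pr2 was 1.5-fold higher (0.59 ± 0.23, edgeR adjusted p = 0.0281), a call lost without WT B library 1, 3 or 4 or WT cDC1 library 1 or 2 (highest edgeR adjusted p = 0.0672).

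In March1-/- cDC1 against March1-/- B cells 5 of 6 were called, where 71.5% of all tested genes were. S1pr1 (−5.42 ± 0.12), S1pr3 (−4.40 ± 0.15), S1pr4 (−3.21 ± 0.10) and Cnr2 (−0.98 ± 0.07) were lower in cDC1 and S1pr2 (1.99 ± 0.25) was higher. Gpr183 did not pass (−0.32 ± 0.20, edgeR adjusted p = 0.155), and did without March1-/- B library 4 (edgeR adjusted p = 0.0419). CD11cint cells against March1-/- cDC1 gave calls for all 6 genes, where 72.3% of all tested genes were called. S1pr1 was 79.5-fold higher in CD11cint cells (6.31 ± 0.12), S1pr3 63.9-fold (6.00 ± 0.15), S1pr4 4.31-fold (2.11 ± 0.10) and Cnr2 2.32-fold (1.22 ± 0.07), and S1pr2 was 5.34-fold lower (−2.42 ± 0.26). Gpr183 was 1.41-fold higher (0.50 ± 0.20, edgeR adjusted p = 0.0303), a call lost without the 3 March1-/- libraries numbered 1 (0.46, edgeR adjusted p = 0.111) and without CD11cint library 1 or 2 or March1-/- cDC1 library 3 or 4 (highest edgeR adjusted p = 0.121).

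Per kilobase of exon, S1pr1 made up most of the S1P receptor RNA in B cells and CD11cint cells. Its share of the summed level of S1pr1 to S1pr5 was 73.6 ± 1.47% in WT B cells, 69.9 ± 1.33% in March1-/- B cells and 73.7 ± 0.50% in CD11cint cells (SD, n = 4). The rest shifted between S1pr3 and S1pr4. S1pr3 took 16.6 ± 1.97% in WT B cells, 12.5 ± 1.24% in March1-/- B cells and 21.6 ± 0.55% in CD11cint cells, and S1pr4 took 9.05 ± 1.66%, 17.1 ± 2.34% and 4.5 ± 0.35%.

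In cDC1 libraries the S1P receptor RNA was divided more evenly. S1pr4 took 39.7 ± 3.41%, S1pr2 30.6 ± 2.11%, S1pr1 23.6 ± 2.57% and S1pr3 4.95 ± 0.93% in WT. In March1-/- cDC1 these shares were 34.9 ± 2.83%, 22.1 ± 2.38%, 31 ± 3.63% and 11.4 ± 1.56%. S1pr5, known from NK cells, was at 0 to 1.68 CPM in every library. In WT cDC1, S1pr1 and S1pr3 were at 0.876% and 0.814% of the WT B cell level, where the pan B cell list summed to 1.55%. In March1-/- cDC1 they were at 2.33% and 4.74% of the March1-/- B cell level, and the list at 2.05%. The part of B cell RNA in the cDC1 shares was not tested.

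**Figure D4:**
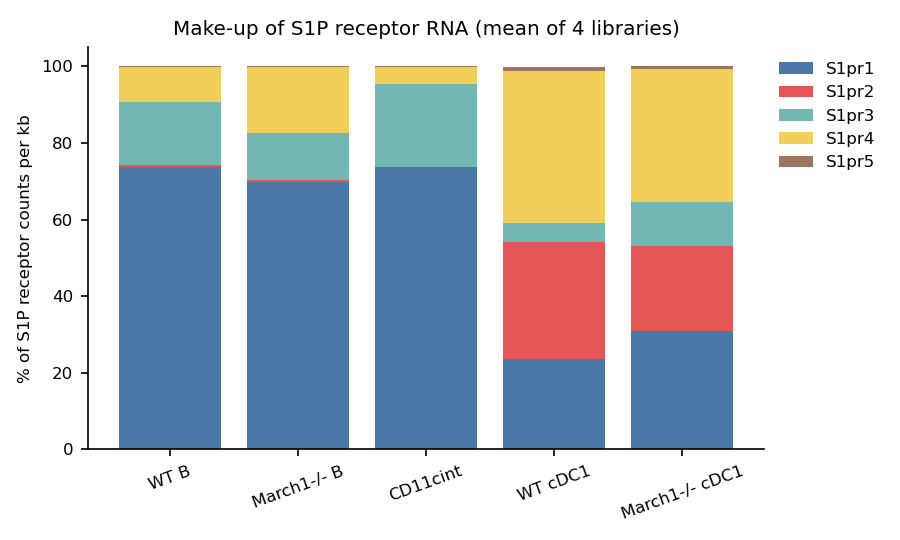
Share of each receptor in the summed CPM per kilobase of S1pr1 to S1pr5, as the mean of 4 libraries in each group. S1pr1 holds 69.9 to 73.7% in B cells and CD11cint cells, and S1pr2 and S1pr4 hold more than in those groups in cDC1. The part of B cell RNA in the cDC1 shares was not tested.

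The ratio of S1pr3 to S1pr1 within a library does not depend on the library's scaling. As log2 of the CPM ratio its mean was −1.94 ± 0.13 in March1-/- B cells, −1.61 ± 0.19 in WT B cells, −1.22 ± 0.04 in CD11cint cells, −1.63 ± 0.40 in WT cDC1 and −0.88 ± 0.16 in March1-/- cDC1 (SD, n = 4). Of 7 comparisons, 6 had groups that did not overlap, and each of these gave a two-sided exact permutation p of 0.0286, the smallest possible (0.0334 adjusted over the 7). S1pr3 thus fell by more than S1pr1 in March1-/- B cells (−0.33) and was more strongly raised in CD11cint cells against March1-/- B cells (0.72). The latter groups were paired by number in the data. An exact test with sign flips within their pairs gave p = 0.125, the smallest that 4 pairs allow. WT cDC1 and WT B cells overlapped (−0.02, exact permutation p = 0.914). The part of B cell RNA in the cDC1 ratios was not tested.

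**Figure D5:**
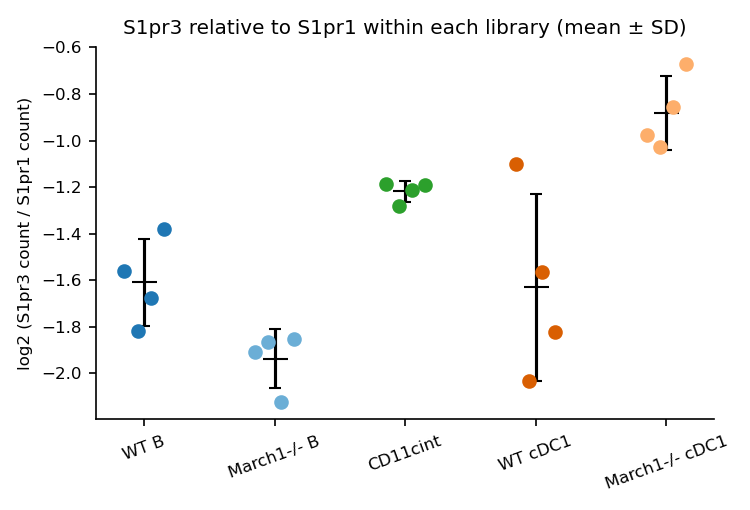
Log2 ratio of S1pr3 to S1pr1 counts in each library (points), with mean and SD of 4 libraries. March1-/- B cells are lowest at a mean of −1.94, CD11cint cells lie tightly around −1.22, and the WT cDC1 points are widely spread.

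Genes with the most similar profile were sought over all 20 libraries by the root mean square difference of centred log2 CPM, among 13360 genes, for the 4 members whose group means spanned at least 2 log2 units. The nearest to S1pr1 were Lax1 (0.17), Mzb1 (0.25) and Cxcr5 (0.28), where the median gene stood at 3.12. The nearest to S1pr3 were Nebl (0.28), Ptpn14 (0.32) and Terb1 (0.37), against a median of 3.03. The nearest to S1pr4 were Arhgef18 (0.16), Tec (0.17) and Tcp11l2 (0.18), against a median of 1.44. S1pr2 had no neighbour as close, with Rell1 (0.44), Maged1 (0.54) and Efnb1 (0.55) against a median of 1.12. Nebl, for example, was at 92.5 CPM in CD11cint cells, 56.3 CPM in WT B cells, 33.7 CPM in March1-/- B cells and 1.58 and 0.398 CPM in March1-/- and WT cDC1. Tec, a kinase, was at 55.2, 82.8, 106.9, 11.7 and 10.7 CPM in the same order of groups.

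Enzymes that make and remove the ligands were examined with the receptors. Sphk1, one of the kinases that make S1P, had at most 4 reads in any library, and Sphk2, the other, was at 35.5 CPM in WT B cells and 52 CPM in WT cDC1. Sgpl1, the lyase that degrades S1P, was 225.1 CPM in WT cDC1 and 111.4 CPM in WT B cells, a log2 fold change of 1.01 ± 0.06 (edgeR adjusted p = 1.07e-13). Of 24 listed S1P enzymes and transporters 23 were tested. In CD11cint cells against March1-/- B cells 4 rose and 6 fell (median 0.08, 0.01 over all genes), among them Cerk, a ceramide kinase (−1.03 ± 0.07), Cers6, a ceramide synthase (−1.09 ± 0.14), Sgpp2, an S1P phosphatase (−1.07 ± 0.15), and Sgpl1 (−0.21 ± 0.06). With genotype 1 rose and 1 fell in B cells, where 4.76% of all tested genes were called, and 1 fell in cDC1, where 2.86% were. In the CD11cint comparison 24.7% of all tested genes were called, and none of these list counts is read as a result about the list.

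The oxysterol list held 11 genes, of which 9 were tested. Ch25h, which makes the precursor of the GPR183 ligand, had at most 3 reads in any library. Cyp7b1, the next enzyme, was found in cDC1 and not above the floor of the B cell libraries on average. It rose from 5.42 ± 1.18 CPM in WT to 11.8 ± 1.46 CPM in March1-/- cDC1 (log2 fold change 1.12 ± 0.20, edgeR adjusted p = 0.00156), the only call of the list in that comparison. Hsd3b7, which inactivates the ligand, was at 66 ± 6 CPM in WT cDC1 against 2.88 ± 0.40 CPM in WT B cells (4.52 ± 0.10, edgeR adjusted p = 5.32e-21) and did not pass with genotype. Cyp39a1, an oxysterol hydroxylase, fell in March1-/- B cells (−0.49 ± 0.13, edgeR adjusted p = 0.0325) and was higher in CD11cint cells than in them (1.24 ± 0.13, edgeR adjusted p = 3.83e-07). Of 13 tested endocannabinoid genes 1 rose in March1-/- B cells, and in CD11cint cells 2 were higher and 1 was lower than in March1-/- B cells, against 4.76% and 24.7% called over the whole table.

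Among 26 tested G protein genes and regulators of receptor signalling, CD11cint cells had 6 at a higher and 8 at a lower level than March1-/- B cells (median −0.01, 0.01 over all genes), where 24.7% of all tested genes were called. The inhibitors of G protein signalling that were lower included Rgs13 (−4.03 ± 0.21), Rgs16 (−2.27 ± 0.56), Rgs1 (−1.66 ± 0.38) and Rgs2 (−1.57 ± 0.17). Rgs13 was at 0.859 against 13.9 CPM, and Rgs16 at 0.123 against 0.598 CPM, near the floor with 1 to 5 reads in a CD11cint library. Rgs10 (1.31 ± 0.11), of the same family of inhibitors, and the receptor kinase Grk3 (1.25 ± 0.13) were higher. Gna13 (−0.34 ± 0.07) and Grk2 (−0.34 ± 0.07) were lower, whereas Gnai2 (−0.01 ± 0.07, edgeR adjusted p = 0.918) and Arhgef1 (0.03 ± 0.07, edgeR adjusted p = 0.807) did not pass. In March1-/- B cells 1 rose and 4 fell, where 4.76% of all tested genes were called, among them Rgs10 (−0.92 ± 0.11) and Grk3 (−0.76 ± 0.13), with Rgs13 rising (0.58 ± 0.15).

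Of 9 genes listed as regulators of S1pr1, 3 fell in CD11cint cells against March1-/- B cells (median −0.12, 0.01 over all genes), where 12.2% of all tested genes fell. Klf2, a transcription factor known to drive S1pr1 in T cells, was at 34.1 ± 10.2 CPM in CD11cint cells, against 129.1 ± 39.6 CPM in the B cells of that genotype, a log2 fold change of −1.92 ± 0.25 (edgeR adjusted p = 2.37e-05), the opposite direction to S1pr1. Bach2 (−1.71 ± 0.14) and Foxo1 (−0.47 ± 0.07) were lower too. Cd69, whose product takes S1PR1 off the surface, did not pass (−0.68 ± 0.38, edgeR adjusted p = 0.232). In March1-/- cDC1 the B lineage factor Ebf1 rose (1.55 ± 0.14, edgeR adjusted p = 1.48e-07), at 1.29 to 3.76 CPM, beside the B cell values given above.

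Of 20 tested positioning receptors and adhesion genes other than the members, CD11cint cells had 8 at a higher and 5 at a lower level than March1-/- B cells (median 0.11, 0.01 over all genes), where 24.7% of all tested genes were called. Ackr3 (1.55 ± 0.16), Gpr34 (1.13 ± 0.16) and Cxcr5 (0.41 ± 0.14, edgeR adjusted p = 0.0334) were higher. Cxcr4 (−1.77 ± 0.42), Ccr7 (−1.24 ± 0.19) and the integrin subunit Itgb7 (−1.15 ± 0.16) were lower. Ccr7, which guides dendritic cells and B cells to the T cell zone, was also lower in March1-/- than in WT cDC1 (−0.96 ± 0.19, edgeR adjusted p = 0.00621). Cxcr5 was higher there (1.04 ± 0.21, edgeR adjusted p = 0.00483), at 4.28 ± 0.96 against 2.07 ± 0.53 CPM. In WT B cells, March1-/- B cells and CD11cint cells Cxcr5 was at 302.3, 264.2 and 349.8 CPM. The part of B cell RNA in its cDC1 difference was not tested. Klf2, Ccr7 and Cxcr5 are also on the follicular list above.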

How the data were processed

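The authors deposited whole-number read counts per gene for 40 lanes and as a table of 20 libraries, and 2 lanes per library summed to that table in all 566760 cells. The submitters' processing notes list STAR, Subread, CASAVA, FastQC, limma and edgeR without versions, and the builds GRCm38 and mm10. The sources used here do not say if counting was stranded, so reads of overlapping genes on opposite strands cannot be told apart. Per the labels' protocols, cells were sorted at 95 to 99% purity, RNA was isolated with an RNeasy kit and libraries followed TruSeq. Of the gene identifiers 28241 matched GENCODE M21 and 97 did not, the latter with 0.114% of counts. Chi-square per gene was 0.989 to 1.031 between lanes of a library, as sampling noise gives, and 4.55 to 71.4 between libraries of a group, so no libraries were merged.

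The test was the quasi-likelihood F test of edgeR 4.0.16 (R 4.3.3) on the counts as the authors deposited them. All 5 groups were fitted together with filterByExpr, TMM factors and robust estimation. The fit kept 18710 genes with 99.9459% of counts, had 15 residual degrees of freedom and a biological coefficient of variation of 10.91%. P-values were adjusted by Benjamini-Hochberg over all tested genes, and an adjusted p under 0.05 is called. The procedure was tested on simulated data. Levels are CPM on TMM-scaled library sizes. Log2 CPM for permutation tests and likeness used a prior count of 2. Levels between genes are compared per kilobase of exon. The floor of 3 counts covers counting error only. limma 3.58.1 and DESeq2 1.42.0 served as alternatives. Tables and figures were made in Python 3.11.15 with pandas 2.3.3 and matplotlib 3.10.9.

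Named genes are the 6 receptors, 15 ligand and signalling genes, other listed genes called at 1 or more on the log2 scale, up or down, in 1 of 3 comparisons (B cells by genotype, cDC1 by genotype, CD11cint against March1-/- B cells), and the 3 nearest genes in profile. Cr2 was named after its values were seen. The level of 1 pan B cell gene is not reported here. The members and lists were chosen with earlier results of these data known. Replicate numbers of March1-/- B cells and CD11cint cells pair the libraries in the data, since same-numbered libraries deviated together (r 0.213 to 0.503). In every other pair of groups at least 1 number had r of 0.1 or less, so those numbers were not taken as pairs.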

Additional observations from a re-analysis of the deposited data

Results flagged for a closer look

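In 35 sets of 4 libraries (6 genes and the S1pr3 to S1pr1 ratio in 5 groups), 3 had a library far from the others by Dixon's test at the 95% level, where chance gives about 1 in 20. Library 2 of WT B cells held S1pr2 at 8.57 CPM, against 6.5 to 6.79 CPM in the rest. CD11cint library 1 held S1pr3 at 225.5 CPM, against 198.3 to 199.9 CPM, and it is the library that stood apart from its group. Library 2 of March1-/- B cells held Cnr2 at 241.1 CPM, against 212.2 to 212.9 CPM.

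The genotype effect differed between cDC1 and B cells for 3 of the receptors. The interaction on the log2 scale was 1.41 for S1pr1, 1.41 for S1pr2 and 2.54 for S1pr3, as tested with edgeR. Marginal zone and pan B cell genes were called with a positive sign in it as well, as given above. The S1pr2 call was lost without a filter on low counts (edgeR adjusted p = 0.0606), without the 3 March1-/- libraries numbered 1 (0.117) and without any of 7 single libraries, so only those of S1pr1 and S1pr3 held in each of these settings.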

How the results depend on the processing

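Alternatives were RLE size factors, no filter on low counts, limma-voom, DESeq2, a fit of the compared groups alone, the replicate block and each library left out. Removal of the 3 March1-/- libraries numbered 1 together was chosen after seeing the data. TMM and RLE levels differed by at most 0.021 log2 in any library. Where a call changed, the cause was not tested unless libraries were dropped. Without a filter, Gpr183 in CD11cint against March1-/- cDC1 was 0.53 (edgeR adjusted p = 0.0554) and the S1pr2 interaction 1.39 (0.0606). Without the 3 libraries these were 0.46 (0.111) and 1.32 (0.117), and Cnr2 in CD11cint against WT B cells was 0.19 (0.0424). That Cnr2 value was 0.19 with DESeq2 (adjusted p = 0.0389). In the compared groups alone, Cnr2 in CD11cint against March1-/- B cells was 0.23 (edgeR adjusted p = 0.0642) and 3018 of all genes were called, against 4613. The interaction called 441 genes, and 697 with DESeq2.

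With the replicate block by number, S1pr4 in cDC1 was 0.35 (edgeR adjusted p = 0.0401), Cnr2 in CD11cint against WT B cells 0.18 (0.0236) and the Gpr183 interaction 0.74 (0.0464, or 0.0394 with a value of 0.74 for the block within genotype), while interaction calls rose to 680 and 978. The replicate block within genotype left the other calls of the members in place. Of the groups not taken as paired, those of 1 genotype had every library correlate best with its own number (March1-/- cDC1 with March1-/- B cells 0.088 to 0.202 and with CD11cint cells 0.034 to 0.369, WT B cells with WT cDC1 0.089 to 0.315), a hint from the data and not from the labels. Sign flips within numbers gave p = 0.125, the smallest that 4 pairs allow in an exact test, for the S1pr3 to S1pr1 ratio differences of −0.33, 0.75, 0.72, −0.34, 0.39 and 1.05. With the longest transcript as length, the S1pr2 share was 26.1% in March1-/- cDC1, 35.5% in WT cDC1 and 0.706% in WT B cells.

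With each library left out in turn, all genes called in March1-/- against WT B cells were 574 to 879, against 890 with all libraries. Changes over 1.5 times came from March1-/- B library 1 or 3 and WT B library 1 or 4. The change of Cnr2 in CD11cint against March1-/- B cells was 0.20 to 0.28. Gpr183 ranged from 0.39 to 0.60 in CD11cint against March1-/- cDC1, from −0.16 to 0.052 against WT B cells (positive without CD11cint library 4, not called), from 0.36 to 0.72 in cDC1 by genotype, from −0.46 to −0.22 in March1-/- cDC1 against B cells and from 0.56 to 0.95 in the interaction, which passed without WT cDC1 library 1 (edgeR adjusted p = 0.0332). S1pr2 ranged from 0.54 to 0.68 in WT cDC1 against WT B cells and from 1.23 to 1.82 in the interaction, which was lost without any of 7 libraries (highest edgeR adjusted p = 0.0626). The ratio differences that had not overlapped were −0.40 to −0.25 (B cells by genotype), 0.62 to 0.93 (cDC1 by genotype), 0.65 to 0.75 (CD11cint against March1-/- B cells), −0.39 to −0.27 (against March1-/- cDC1), 0.32 to 0.47 (against WT B cells) and 0.98 to 1.10 (March1-/- cDC1 against B cells), each with an exact permutation p of 0.0571, the smallest possible with 3 against 4 libraries. The ratio in WT cDC1 against WT B cells ranged from −0.20 to 0.11, and was 0.05 without WT B library 4, 0.11 without WT cDC1 library 2 and 0.04 without WT cDC1 library 4.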
